A study of Mus musculus with 6 samples.

Results

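The RGK proteins are a small branch of the Ras family of GTPases, named after Rad, Gem and Kir, and the mouse genome encodes 4 of them: Gem, Rrad (which encodes Rad), Rem1 and Rem2. They were taken as a family by gene symbol, although earlier results of these data were known when the family was chosen, and all 4 were among the 32739 genes listed for each library. RNA was sequenced from HL-1 cells, an immortalised line of mouse atrial cardiomyocytes, that had spent 6 h in hypoxia and then 1 h back in oxygen, which models ischaemia and reperfusion. These times are those of the series design, whereas the description of each sample says ReOx7h, read here as the 2 periods added up. One group of 3 libraries received BRL37344 (BRL) at 5 µM in the medium, named in the series as a β3-adrenergic agonist. The other group of 3 received vehicle and went through the same hypoxia and reoxygenation. All libraries come from this single line, no group in normal oxygen was analysed here, and the sources used here do not give the time at which BRL was added. Separate cultures are not stated for the libraries of a group, so the p-values rest on a spread between samples that may be technical.

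RGK proteins bind the β subunits of voltage-gated calcium channels and strongly reduce the current through L-type channels, the entry path for the calcium that triggers contraction in cardiomyocytes. In heart, Rad restrains the L-type channel, and phosphorylation of Rad by protein kinase A during β-adrenergic stimulation lifts that restraint. Gem was first described as a gene induced when resting cells are stimulated to divide. Unlike most Ras proteins, the RGK proteins are regulated to a large degree through how much of them is made.

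The coding sequences show how far the counts of the 4 genes can be kept apart. They hold 885 bases in Gem, 921 in Rrad, 891 in Rem1 and 1023 in Rem2 (stop codon left out; GENCODE M21 transcripts, build GRCm38). The best-conserved ungapped stretch of 48 bases in an alignment of the 4 is printed next, from base 630 in Gem, 666 in Rrad, 642 in Rem1 and 750 in Rem2, and capitals mark the 30 bases identical in all of them.
Gem: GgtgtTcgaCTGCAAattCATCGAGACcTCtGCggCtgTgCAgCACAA
Rrad: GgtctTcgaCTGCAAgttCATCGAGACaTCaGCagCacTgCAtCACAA
Rem1: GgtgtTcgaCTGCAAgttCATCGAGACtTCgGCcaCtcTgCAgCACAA
Rem2: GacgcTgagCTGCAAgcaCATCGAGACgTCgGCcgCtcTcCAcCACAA
The remaining bases differ in at least 1 gene. Over all aligned coding bases Gem and Rrad were 64.8% identical, and the lowest identity, 54.6%, was between Rem1 and Rem2. The longest run shared by any pair was 23 bases, between Rrad and Rem1 (ttcgactgcaagttcatcgagac), and between Gem and Rrad it was 20 bases (cgcctgcgcagggacagcaa). Expected counts, which divide a read among loci where it fits several, were whole numbers (within 0.005) for all 4 genes in every library. No exon of Gem overlaps another gene in that annotation, whereas Rrad overlaps Gm33023 on the opposite strand, and the sources used here do not say if strand was used in counting.

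Total expected counts were 4440168 to 5060049 in the vehicle libraries and 6812810 to 8332472 in the BRL libraries, so depth did not overlap between the groups. BRL replicate 1 stood apart: 5.03% of its counts came from mitochondrially encoded genes, against 16.5% to 21.9% in the other 5 libraries. Of the 10 cardiomyocyte and atrial markers all were detected, with a summed level of 13056 to 14103 TPM (a level per transcript length, relative to all transcripts) in vehicle and 8997 to 12160 in BRL, lowest in BRL replicate 1. Of these only Myh6 passed the edgeR test used below (log2 fold change −1.33, adjusted p = 0.0117). Myh6, Actc1 and Myl4 were lower in every BRL library, as were 15.5% of all genes tested. Tnni3 was higher in every one, as were 16.0% of all genes tested, and the other cardiomyocyte and atrial markers overlapped. The part of these markers in the results was not tested. The sum of 5 smooth muscle markers also did not overlap between groups (3997 to 4541 against 1653 to 3345). Most of it was Acta2 (3431 TPM on average in vehicle and 2083 in BRL) and Tagln (763 and 502 TPM). Acta2, Tagln and Smtn were lower in every BRL library, Cnn1 overlapped, and Myh11 had at most 2 counts in any library. None of the 4 tested passed edgeR (adjusted p of 0.131 to 0.746). The part of the smooth muscle markers in the results below was not tested. Fibroblast markers (7 genes) had a low sum, higher in every BRL library (2.60 to 3.54) than in any vehicle library (1.64 to 2.39). Col1a1 made up most of this sum, with 1.49 to 1.90 TPM in vehicle and 2.23 to 3.46 in BRL. The other fibroblast markers had at most 7 counts in any library. By counts Col1a1 went the other way, with overlapping groups (edgeR log2 fold change −0.43, adjusted p = 0.414). The sum therefore does not show a rise of fibroblast markers as a group, and the part of these markers in the results was not tested either. Endothelial (5 genes) and leukocyte markers (6 genes) summed to at most 5.39 and 10.2, with Dcn, Lum, Thy1, Emcn, Ptprc, Adgre1 and Csf1r at 0 in all libraries. Skeletal muscle markers summed to 71.1 to 80.1 TPM in vehicle and 32.2 to 74.7 in BRL with Myod1 at 0, and ventricular markers to 31.6 to 39.4 and 8.54 to 35.1 with Irx4 at 0. These sums leave out mitochondrially encoded genes.

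Gem was higher in every BRL library. Its level in CPM (counts relative to the library total, scaled by TMM library factors) was 25.8, 20.98 and 21.1 in vehicle replicates 1, 2 and 3, while BRL replicates 1, 2 and 3 had 32.8, 36.6 and 35.3. The lowest BRL library lay above the highest vehicle library, with the largest vehicle value in replicate 1. Group levels were 22.6 ± 2.75 CPM in vehicle and 34.9 ± 1.92 CPM in BRL (SD, n = 3 each). In the quasi-likelihood test of edgeR, adjusted by Benjamini and Hochberg over the 12047 genes that passed a filter on low counts, Gem rose by a log2 fold change of 0.63 ± 0.12 (SE, 95% interval 0.35 to 0.91, adjusted p = 0.0389), or 1.55-fold. Of the 4 RGK genes 2 passed that filter, and Gem was the 1 that rose, where 1.01% of all genes tested rose and 16.0% had every BRL library above every vehicle library. By size of log2 fold change Gem was number 77 of the 122 genes that rose. In the authors' deposited table of log2 values, Gem averaged 4.61 in vehicle and 5.23 in BRL. In these bulk samples, more cells expressing a gene and more RNA per cell cannot be told apart.

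Counts behind Gem were 115, 100 and 104 in vehicle and 248, 260 and 289 in BRL. Between libraries its CPM had a coefficient of variation of 12.1% in vehicle and 5.50% in BRL, and counting error alone gives about 9.71% and 6.14%. With 3 libraries a group, these cannot be told apart. Without BRL replicate 1 the log2 fold change of Gem was 0.68 ± 0.11 (edgeR adjusted p = 0.00124), in a fit where 21.2% of all genes passed and 10.3% rose. Leaving out any 1 of the other 5 libraries kept the direction (0.58 to 0.74 over all 6 such fits) but not the call (adjusted p of 0.0799 to 0.226).

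Rrad was present at a lower level and did not pass the test. It had 7.85, 6.71 and 10.1 CPM in vehicle replicates 1, 2 and 3, while BRL replicates 1, 2 and 3 had 8.74, 9.29 and 11.1 CPM. Vehicle replicate 3 lay above the lower 2 BRL libraries, so the groups overlapped. Levels were 8.23 ± 1.74 and 9.71 ± 1.25 CPM (SD, n = 3 each), from 32 to 50 counts in vehicle and 66 to 91 in BRL. The log2 fold change was 0.24 ± 0.21 (edgeR adjusted p = 0.549), with a 95% interval of −0.25 to 0.72 that holds both no change and a rise as large as that of Gem. Leaving out BRL replicate 1 gave 0.32 ± 0.21 (adjusted p = 0.309), and leaving out single libraries in turn gave 0.11 to 0.42. Both extremes came from vehicle libraries, 0.11 without replicate 2 and 0.42 without replicate 3.

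Whether Gem and Rrad differed in their response was tested directly on the log2 ratio of their counts in each library. This ratio was 1.72, 1.64 and 1.06 for vehicle replicates 1, 2 and 3, and BRL replicates 1, 2 and 3 gave 1.91, 1.98 and 1.67. Only the third replicate of vehicle stood well away from the rest. The mean was 1.47 ± 0.36 in vehicle and 1.85 ± 0.16 in BRL (SD, n = 3 each), a difference of 0.38 (two-sided exact permutation test, p = 0.2, where 3 against 3 libraries cannot go below 0.1). This test could not pass 0.05 in this design, so whether the 2 genes differ in response is not answered by it.

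Rem1 and Rem2 were at the detection limit. Rem1, known from heart and skeletal muscle, had 1 count, in vehicle replicate 2, and 0 in the other 5 libraries. Rem2, best known from neurons, had 0, 1 and 2 counts in vehicle replicates 1, 2 and 3, while BRL replicates 1, 2 and 3 had 1, 0 and 0. A count of 0 allows up to 3 counts, which corresponds to 0.608 to 0.673 CPM in the vehicle libraries and 0.3665 to 0.422 CPM in the BRL libraries, for counting error only. Both genes fell below the filter on low counts, and a difference between groups was not detectable at this depth. Tested without the filter, neither passed edgeR (adjusted p = 0.609 for both).

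**Figure D1:**
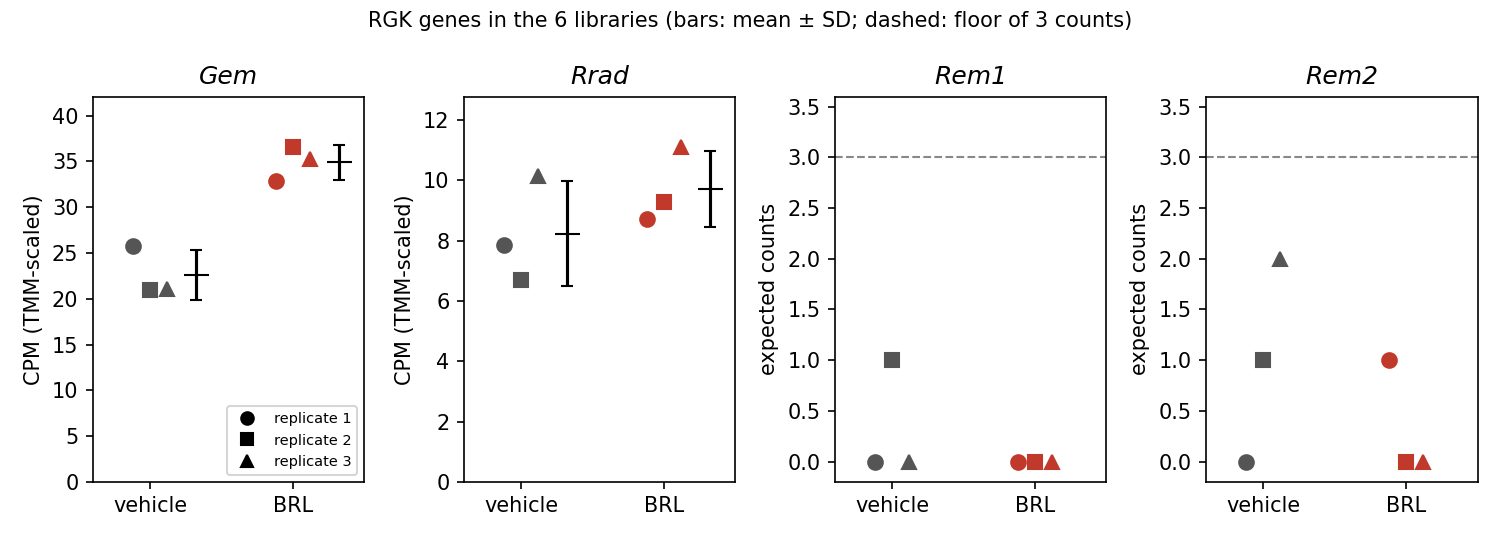
Levels of the 4 RGK genes by library, with TMM-scaled CPM for Gem and Rrad and expected counts for Rem1 and Rem2; symbols mark replicates, bars the mean ± SD over 3 libraries, and the dashed line the floor of 3 counts. All 3 BRL libraries lie above all vehicle libraries for Gem, the groups overlap for Rrad, and Rem1 and Rem2 stay at 2 counts or fewer.

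To compare genes with each other, levels were taken per length, as TPM from the fraction of transcripts that RSEM estimates. Gem had 17.7 ± 2.82 TPM in vehicle and 28.6 ± 4.40 TPM in BRL, and Rrad 8.27 ± 1.73 and 10.2 ± 1.62 TPM (SD, n = 3 each). Because a smaller mitochondrial share raises the TPM of every other gene in BRL replicate 1, the values were also taken without mitochondrially encoded genes. Gem then had 29.3, 24.0 and 24.3 TPM in vehicle replicates 1, 2 and 3, and the BRL replicates in that order had 37.59, 39.0 and 38.9 TPM. Rrad had 11.5, 9.88 and 15.0 TPM in vehicle and 12.9, 12.7 and 15.8 TPM in BRL in the same order. Gem was thus above Rrad in all 6 libraries, and its lowest value exceeded the highest of Rrad. Rem1 and Rem2 came next, at no more than 0.292 and 1.04 TPM in any library, and could not be ordered. Gem made up 60.2% to 71.9% of RGK transcripts in the vehicle libraries and 71.2% to 75.4% in the BRL libraries, so these shares overlapped between groups.

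Set against the channels that RGK proteins act on, Gem was of the same order as the main cardiac L-type pore. Cacna1c, which encodes that pore, had 33.3 ± 4.59 TPM in vehicle and 35.1 ± 1.49 TPM in BRL, and Gem had 25.9 ± 2.98 and 38.5 ± 0.802 TPM (SD, n = 3 each, mitochondrial genes left out here and in the next sentences). The highest levels among channel genes were those of Cacnb3, a β subunit (83.6 ± 3.12 and 74.9 ± 16.5 TPM), the T-type pore Cacna1h (65.5 ± 10.8 and 53.8 ± 17.2 TPM) and the α2δ subunit Cacna2d1 (42.1 ± 0.476 and 36.3 ± 7.76 TPM). Cacnb2, the β subunit best known from heart, had 14.7 ± 3.26 and 14.7 ± 1.52 TPM, near the level of Rrad. Counts of Cacna1h and Cacnb2 were not whole numbers, and exons of both overlap genes on the opposite strand, so their levels are less certain. Among the 4 RGK and 30 other Ras family genes ordered by mean level, Gem ranked 16 and Rrad 21. Rheb (321 TPM on average), Hras (123 TPM) and Rap1b (99.9 TPM) were the highest of the others.

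**Figure D2:**
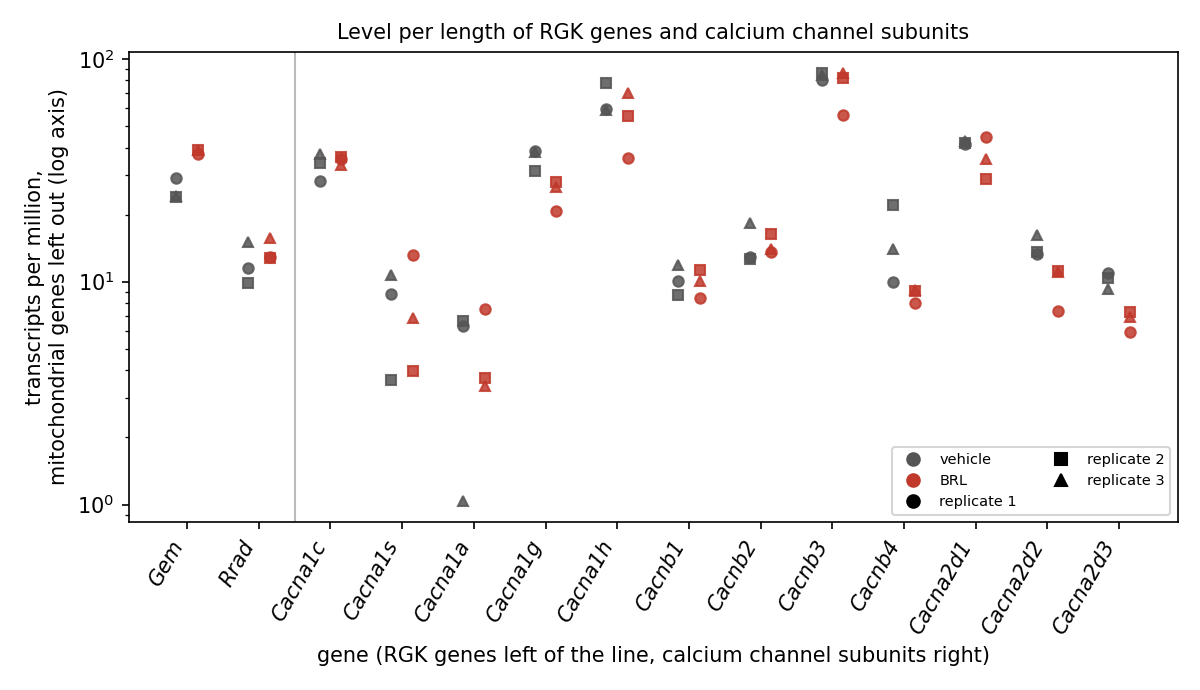
Level per length (TPM without mitochondrially encoded genes, log axis) of Gem, Rrad and the 12 calcium channel subunits that passed the filter on low counts, with 1 symbol per library. Gem lies below the L-type pore Cacna1c in 2 of the 3 vehicle libraries and above it in all 3 BRL libraries, Rrad lies near the β subunit Cacnb2, and Cacnb3 and Cacna1h are the highest channel genes.

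Of 26 genes for voltage-gated calcium channel subunits, 12 passed the filter on low counts, and of these none rose and 1 fell by edgeR (8.33%, where 2.81% of all genes tested passed in either direction and 1.79% fell). The median log2 fold change of the 12 was −0.25, beside 0.01 over all genes tested. That median went with 1 library in part: relative to the vehicle mean it was −0.46 in BRL replicate 1 and −0.17 and −0.07 in replicates 2 and 3. All 8 γ subunits were below the filter, as were the pores Cacna1d, Cacna1f, Cacna1b, Cacna1e and Cacna1i and the α2δ subunit Cacna2d4.

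The gene that fell, Cacnb4, encodes a β subunit, the part of the channel to which RGK proteins bind. It had 35.2, 40.9 and 42.0 CPM in vehicle replicates 1, 2 and 3, and in BRL the replicates had 19.7, 15.5 and 22.0 CPM. No library of a group reached the other group, and 15.5% of all genes tested were likewise lower in every BRL library. The log2 fold change was −1.04 ± 0.15 (edgeR adjusted p = 0.0117), and without BRL replicate 1 it was −1.06 ± 0.14 (adjusted p = 0.000211). The call was lost without any 1 of the 3 vehicle libraries (−0.99 to −1.11, adjusted p of 0.0508 to 0.099). Its counts were not whole numbers and its exons overlap an antisense gene, so its values are less certain than those of Gem. Per length it had 15.4 ± 6.16 TPM in vehicle and 8.76 ± 0.601 TPM in BRL.

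The other 3 β subunits did not pass. Cacnb3 had a log2 fold change of −0.10 ± 0.17, Cacnb2 of 0.08 ± 0.14 and Cacnb1 of −0.02 ± 0.23 (edgeR adjusted p of 0.777 to 0.967). Cacna1c, the L-type pore, had −0.06 ± 0.10 (95% interval −0.28 to 0.15, adjusted p = 0.735), with 92.8 to 106 CPM in vehicle and 92.2 to 98.6 CPM in BRL. Its interval leaves room for only small differences in either direction. Cacna1s, the pore of skeletal muscle, had 0.15 ± 0.28 (adjusted p = 0.789), highest in BRL replicate 1. For the T-type pores, which carry pacemaker and atrial currents, the values were −0.34 ± 0.19 for Cacna1g and −0.28 ± 0.21 for Cacna1h (adjusted p of 0.317 and 0.47). In BRL replicate 1 these had 45.4 and 92.5 CPM, against 74.0 to 76.7 and 166 to 176 CPM in the other BRL libraries. The vehicle libraries had 78.9 to 89.4 and 172 to 180 CPM. Cacna1g was thus lower in every BRL library, as were 15.5% of all genes tested, and the groups overlapped for Cacna1h.

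All 3 tested α2δ subunits, which help bring the pore to the membrane, were lower in every BRL library than in any vehicle library, a pattern seen in 15.5% of all genes tested. None passed edgeR over all genes. Cacna2d3 had a log2 fold change of −0.54 ± 0.16, Cacna2d2 of −0.45 ± 0.19 and Cacna2d1 of −0.24 ± 0.12 (adjusted p of 0.108, 0.202 and 0.282). Without BRL replicate 1, Cacna2d1 fell (−0.36 ± 0.08, edgeR adjusted p = 0.00536), and with Cacnb4 it made up the 2 of 12 channel genes that passed in that fit, where 21.2% of all genes passed. Cacna2d2 and Cacna2d3 instead had smaller changes in that fit, −0.26 ± 0.11 and −0.43 ± 0.15 (edgeR adjusted p of 0.115 and 0.0603). Cacna2d2 was lowest in BRL replicate 1 (17.9 CPM, against 28.3 and 27.1 CPM in BRL replicates 2 and 3).

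**Figure D3:**
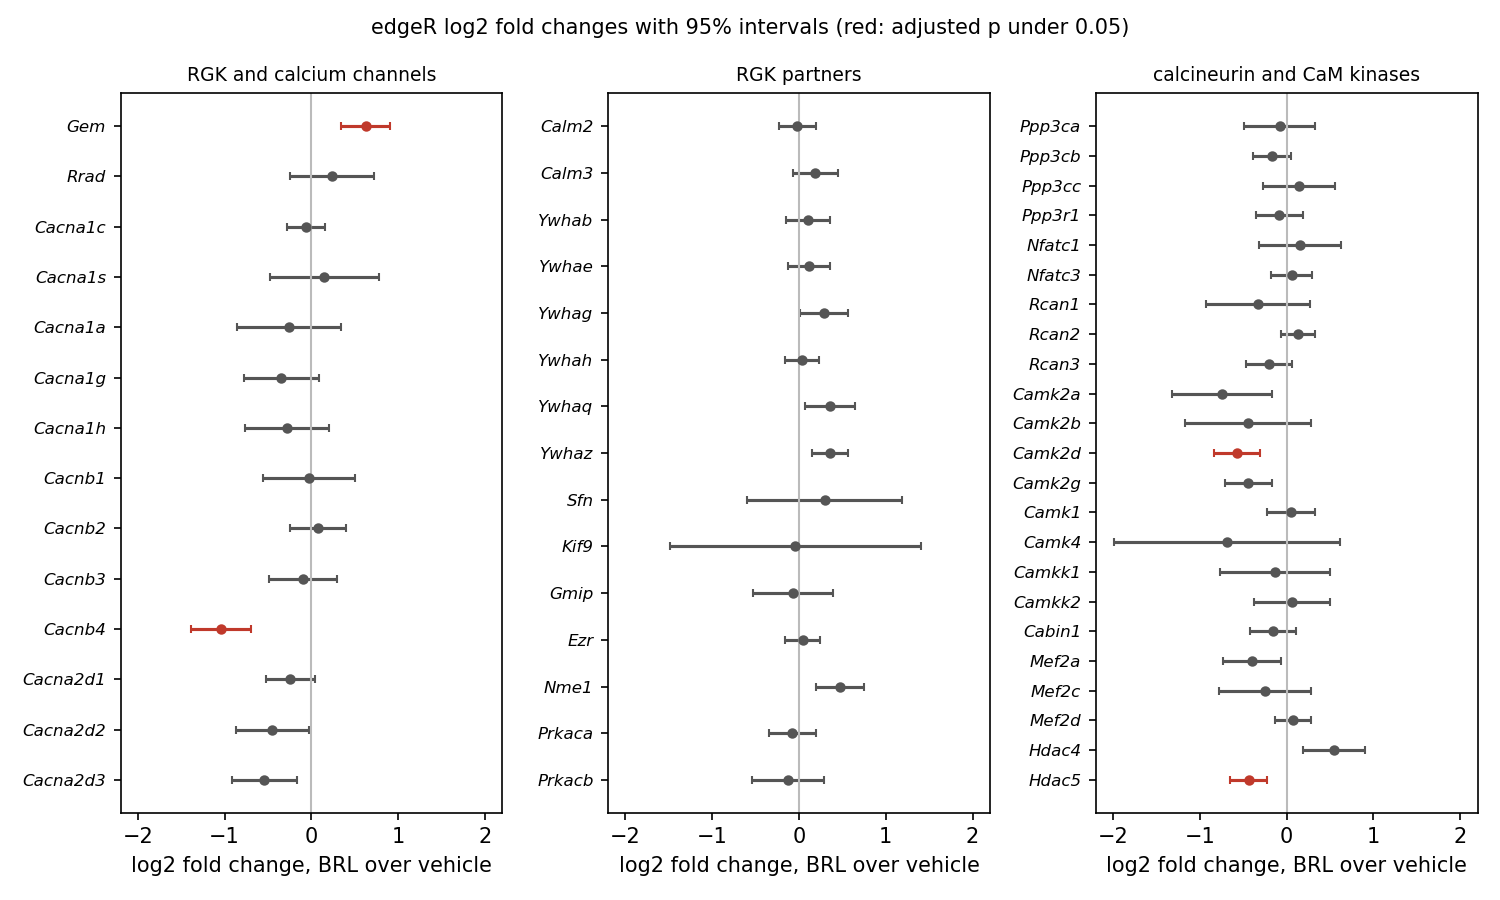
edgeR log2 fold changes (BRL over vehicle, 3 libraries each) with 95% intervals for RGK and calcium channel genes, 15 of the 18 RGK partners, and calcineurin and CaM kinase genes; red marks adjusted p under 0.05. Gem lies right of 0 at 0.63, and Cacnb4 (−1.04), Camk2d (−0.57) and Hdac5 (−0.44) lie left of it.

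Among 18 genes for proteins that bind or modify RGK proteins, all were tested and none passed edgeR. At an unadjusted edgeR p under 0.05 there were 6, where 2698 of all 12047 genes tested were. Other tools called 1 (DESeq2, which called 5.38% of all genes), 2 (the edgeR exact test, 7.84%) and 0 (limma-voom, 2.32%). The median log2 fold change was 0.07. The 14-3-3 proteins and calmodulin bind RGK proteins. Of these, Ywhaz had the smallest p (203 ± 5.52 against 259 ± 12.7 CPM, log2 fold change 0.36 ± 0.09, adjusted p = 0.0756), with counts that were not whole. The most abundant per length were Ywhae (725 TPM on average), Calm2 (536 TPM) and Ywhaq (375 TPM). Counts of Calm2 and Ywhaq were not whole either. Prkaca and Prkacb, the catalytic subunits of protein kinase A, had −0.08 ± 0.12 and −0.12 ± 0.18 (adjusted p of 0.744 and 0.731). Without BRL replicate 1, 4 partners rose, Ywhaq, Ywhaz and Nme1 among them, and 2 fell, Prkacb among them, where 21.2% of all genes passed.

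Of 26 enzymes and factors that read the calcium signal through calcineurin and CaM kinases, 23 were tested, none rose and 2 fell (8.70%, against 2.81% of all genes tested in either direction and 1.79% lower). Camk2d, the main CaM kinase II of heart, had 134, 138 and 149 CPM in vehicle replicates 1, 2 and 3, and the BRL replicates had 109, 85.2 and 89.4 CPM (log2 fold change −0.57 ± 0.12, edgeR adjusted p = 0.0439). Hdac5, a histone deacetylase that CaM kinases drive out of the nucleus, had 62.6, 68.6 and 66.3 CPM in vehicle and 49.4, 48.0 and 48.4 CPM in BRL in the same order (−0.44 ± 0.09, adjusted p = 0.0478). In 7 of the 23 genes tested every BRL library lay below every vehicle library, and in 2 every one lay above. Over all genes tested these patterns had shares of 15.5% and 16.0%. Camk2d and Hdac5 were among the 7. Both calls lay close to the threshold, and without scaling beyond the library total they were lost (edgeR adjusted p of 0.141 and 0.137). When libraries were left out singly they held only without BRL replicate 1 (5.23e-05 and 0.00258). The call of Hdac5 was the less stable: over 17 alternative settings it held in 4, and that of Camk2d in 10. Hdac5 also carries a microRNA gene within its exons. Rcan1, a regulator of calcineurin and the most abundant member per length (379 TPM), had 414 ± 30.8 CPM in vehicle and 329 ± 131 CPM in BRL, with 189 CPM in BRL replicate 1 (−0.33 ± 0.26, adjusted p = 0.498). Ppp3cb, a calcineurin catalytic subunit (102 TPM), and the transcription factor Mef2a (112 TPM) followed in level. The median log2 fold change of the list was −0.16, and without BRL replicate 1, 1 of 22 rose (Hdac4) and 7 fell (Camk2d, Camk2g, Hdac5, Mef2a, Mef2c, Ppp3ca and Ppp3cb), in the fit where 21.2% of all genes passed.

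The 30 other genes of the Ras family, the closest relatives of the RGK genes, served as the comparison by kind. None of the 20 tested passed edgeR (2.81% of all genes did), and 2 were under 0.05 before adjustment (2698 of all 12047 genes were). None passed with DESeq2, the exact test or limma-voom, which called 5.38%, 7.84% and 2.32% of all genes. Log2 fold changes ran from −0.40 (Rasl11b) to 0.37 (Hras), with a median of 0.00, so the value of Gem lay above all of them and that of Rrad within their range. That Gem differs from them was not tested. Hras had the smallest p (55.1 ± 3.44 against 71.1 ± 3.50 CPM, 0.37 ± 0.10, adjusted p = 0.0864). Without BRL replicate 1, Hras, Ralb and Rap2b rose and Nras fell, 4 of 20 beside 21.2% of all genes.

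Genes with the most similar course over the 6 libraries were sought among 9318 others with a mean of at least 10 CPM, by Pearson's r of log2 CPM. Among the nearest to Gem were Eef1b2 (r = 0.991), a translation elongation factor, and Mrpl54 (r = 0.987), a mitochondrial ribosomal protein. Their log2 fold changes were 0.22 ± 0.09 and 0.58 ± 0.14, and neither passed edgeR (adjusted p of 0.216 and 0.0636). The nearest to Rrad were the kinase Nuak2 (r = 0.975), Rhot2, a mitochondrial GTPase (r = 0.958), and Sorbs3, a cytoskeletal adaptor (r = 0.952). Gem and Rrad had r = 0.501 with each other. With 6 points that share library and depth, and the highest values picked from all of these genes, these r describe the libraries only. Counts of Rhot2 were not whole.

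**Figure D4:**
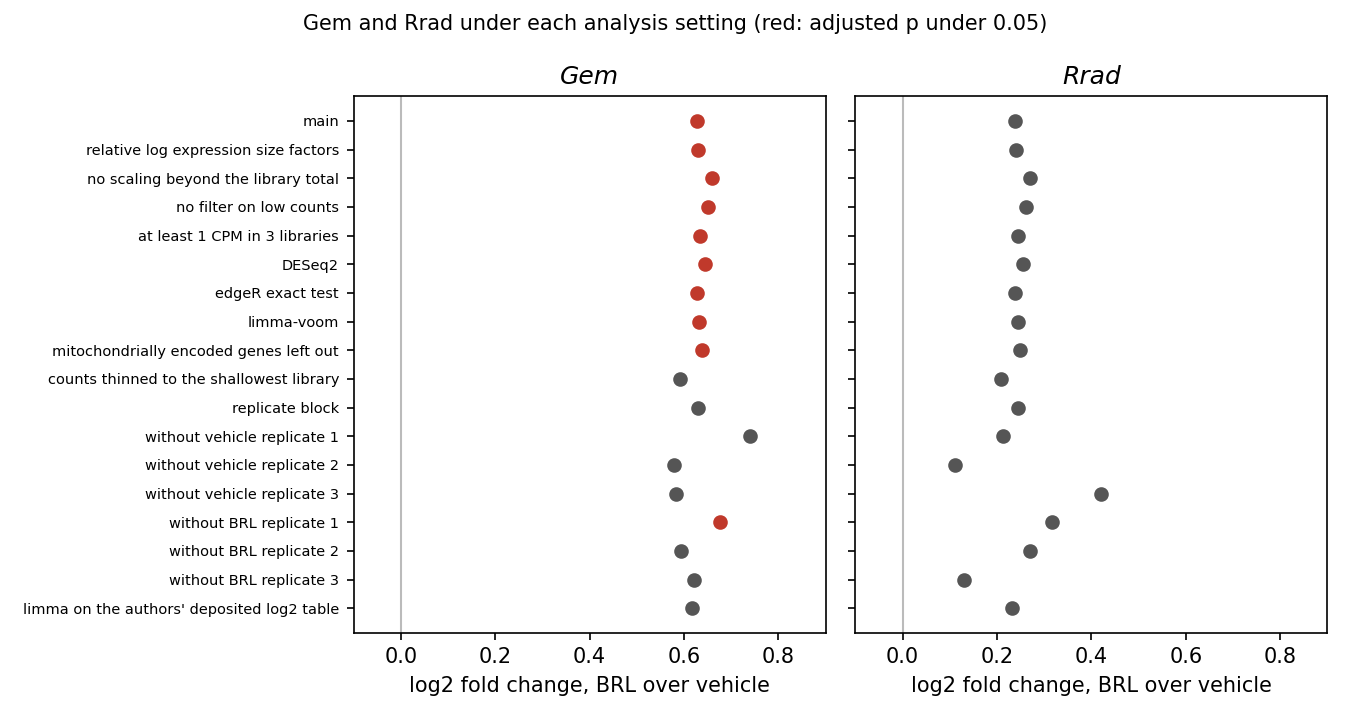
Log2 fold change of Gem (left) and Rrad (right) in the main analysis and under 17 other settings, with red for adjusted p under 0.05. Gem stays between 0.58 and 0.74 and passes in 9 of the 17, and Rrad stays between 0.11 and 0.42 and passes in none.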

How the data were processed

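RNA-seq of 6 HL-1 libraries was analysed, grouped by sample title. The submitters' processing notes name cutadapt, Bowtie, RSEM 1.17 and edgeR and the build NCBIM37, without settings. The authors deposited RSEM expected counts and a fraction per gene for each library, and a table of log2 values. The deposited fraction sums to 1 per library and was scaled to TPM. The authors' deposited log2 table lists 13863 genes, 2 RGK genes among them, and equals log2 CPM plus a shift per library (SD at most 0.03); it served as an alternative only.

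Rounded expected counts went into edgeR 4.0.16 under R 4.3.3: filterByExpr (minimum count 10), TMM factors and the quasi-likelihood test of BRL against vehicle without covariates, adjusted by Benjamini and Hochberg over 12047 genes (threshold 0.05). The SE of a log2 fold change is its size divided by the root of the F statistic. DESeq2 1.42.0, limma 3.58.1 and further settings were alternatives. The fit was tested on simulated data. Symbols were matched for 88.4% of genes; coding sequences were aligned with MAFFT 7.526. Files and annotation differ in build, so no coordinates are given.

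Members and lists were chosen with earlier results of these data known. Named from each list were members past the threshold (otherwise the one of smallest p) and the 3 of highest level per length, and for Gem and Rrad the 3 genes of highest r; some genes that this rule takes, and 1 planned list, are not reported here, and other genes named were chosen after their values were seen.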

Additional observations from a re-analysis of the deposited data

How the results depend on the processing

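Gem kept its direction in all 17 alternatives (log2 fold change 0.58 to 0.74, adjusted p of 0.00124 to 0.226) and its call in 9. The call was lost with counts thinned to the shallowest library (0.59, adjusted p = 0.0518), with the authors' deposited log2 table in limma, an alternative chosen after seeing the data (0.62, adjusted p = 0.0519), and in 5 of the 6 fits without a library (0.58 to 0.74 over all 6). With replicate number as a block the log2 fold change of Gem was 0.63 (adjusted p = 0.0761), and 213 genes passed over all, against 338. Samples of the same number had correlations of 0.10, −0.02 and −0.02 in their deviations from the group means. Samples of different numbers had −0.11 to 0.13, so no pairing by number was visible. With 3 libraries a group this does not settle whether samples of a number shared a culture or day, which the labels do not say. Rrad passed in none (0.11 to 0.42).

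Over all genes 222 passed without scaling beyond the library total, 612 without a filter, 620 with DESeq2, 945 with the exact test, and 32 to 2555 without single libraries, the most without BRL replicate 1. In fits without single libraries, 0 to 2 channel genes, 0 to 6 partners, 0 to 8 calcineurin and CaM kinase genes and 0 to 4 Ras genes passed. Partners passing were 1 with DESeq2 and 2 with the exact test. In the calcineurin and CaM kinase list 1 passed, Camk2d but not Hdac5, with relative log expression factors, no filter, the 1 CPM filter or limma-voom. The same held without mitochondrial genes and with thinned counts. In that order these settings called 2.80%, 3.04%, 2.41%, 2.32%, 2.69% and 2.62% of all genes. In the list 0 passed without scaling or with the block, which called 1.84% and 1.77% of all genes. Why these numbers changed between settings was not tested. Leaving out mitochondrial genes moved the level per length of Gem to 25.9 and 38.5 TPM and of Rrad to 12.1 and 13.8 TPM in vehicle and BRL. Tests of Rem1 and Rem2 were possible only without a filter. Depth limits both.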
